A study of Homo sapiens with 19 samples.

Results

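PTMA, the gene of prothymosin alpha, was examined together with 9 other genes of small or abundant chromatin proteins in 15 RNA libraries of human lymphoma cell lines. The 10 genes are PTMA, PTMS, H3F3A, H3F3B, H2AFZ, HMGB1, HMGB2, HMGN1, HMGN2 and SET, and each has a row among the 25365, 25267 and 25266 gene names used in the tables of OCI-LY10, TMD8 and SUDHL2. They were taken by name, and PTMA was picked for its difference between shEGR1 and control libraries of OCI-LY10. The set was drawn up with results of these data known. For this reason the 10 genes are given with values, differences and standard errors (SE) in comparisons with control, and with p-values only between the 2 shEGR1 labels.

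All 3 are established cell lines of diffuse large B-cell lymphoma, and of its activated B-cell-like subtype. The cells carried a short hairpin RNA labelled shEGR1#8, one labelled shEGR1#9, or a control hairpin (shsc4), and all groups, controls included, received 20 ng/ml doxycycline for 2 days. OCI-LY10 has 3 libraries for each label, and TMD8 and SUDHL2 have 1 for each. The labels do not say whether the 3 libraries of a label are separate cultures, so p-values here reflect the spread among those libraries alone, and that spread may be technical. EGR1 is an early-response transcription factor, and the hairpins are named for it. The series has 19 samples, and 4 of chromatin immunoprecipitation or its input were not analysed here.

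Prothymosin alpha is a short, strongly acidic nuclear protein that binds linker histone H1, loosens chromatin and is abundant in dividing cells, lymphocytes among them. The other genes encode proteins that sit on or move nucleosomes: the replacement histones H3.3 and H2A.Z, the DNA-bending HMGB proteins, the nucleosome-binding HMGN proteins and the acidic histone chaperone SET. Replacement histones are made outside S phase as well and are put into chromatin by their own chaperones, whereas canonical histones are tied to DNA replication. Many of these genes have processed copies in the genome, so that short reads cannot always be placed on one locus.

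The RefSeq annotation (GRCh38.p14) lists 16 pseudogenes of PTMA, 50 of HMGB1, 48 of HMGN2, 38 of HMGN1, 19 of SET, 7 of H3F3A, 6 of H2AFZ, 2 of H3F3B, 1 of HMGB2 and 0 of PTMS. Rows were found for 2 of these pseudogenes, H3F3AP4 and HMGN2P46. The values of a member may therefore hold reads of copies that are not listed, and all 10 genes except PTMS are uncertain in that sense.

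The start regions of PTMA, H2AFZ and H3F3B are shown because PTMA and H2AFZ are the most abundant members and lay below all controls in every shEGR1 library of OCI-LY10, while H3F3B, whose groups overlapped there, is set beside them as a member that was not lower. Each window runs from 250 bases before to 50 bases after the gene's start in RefSeq, build GRCh38.p14, while the expression tables use hg19. Capitals mark CCAAT boxes (CCAAT, or ATTGG where the box lies on the other strand) and the TATA box letters TATAAA.
PTMA promoter, chr2:231708275-231708574, plus strand: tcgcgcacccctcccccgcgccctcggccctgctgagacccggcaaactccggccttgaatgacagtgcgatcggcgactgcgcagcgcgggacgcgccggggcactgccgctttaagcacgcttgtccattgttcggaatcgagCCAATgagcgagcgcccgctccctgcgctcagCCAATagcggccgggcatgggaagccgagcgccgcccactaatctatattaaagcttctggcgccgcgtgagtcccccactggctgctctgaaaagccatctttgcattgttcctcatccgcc
H2AFZ promoter, chr4:99950226-99950525, minus strand: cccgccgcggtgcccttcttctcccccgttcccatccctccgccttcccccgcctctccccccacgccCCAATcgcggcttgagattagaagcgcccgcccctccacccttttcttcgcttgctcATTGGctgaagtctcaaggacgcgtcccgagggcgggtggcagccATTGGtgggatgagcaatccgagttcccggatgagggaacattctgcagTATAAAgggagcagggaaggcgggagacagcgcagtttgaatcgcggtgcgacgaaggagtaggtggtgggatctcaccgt
H3F3B promoter, chr17:75779730-75780029, minus strand: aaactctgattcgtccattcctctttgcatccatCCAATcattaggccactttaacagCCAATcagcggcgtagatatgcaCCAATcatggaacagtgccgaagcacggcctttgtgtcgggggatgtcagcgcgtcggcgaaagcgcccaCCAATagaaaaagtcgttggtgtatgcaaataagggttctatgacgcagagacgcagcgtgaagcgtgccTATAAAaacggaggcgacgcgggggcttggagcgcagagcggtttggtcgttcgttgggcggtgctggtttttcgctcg

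The PTMA window held 2 CCAAT boxes and 0 TATAAA, the H2AFZ window 3 and 1, and the H3F3B window 4 and 1. Windows were given for 8 of the 10 genes, 17 windows in all, and PTMS and HMGB2 had none. CCAAT, searched on both strands, was found in a window of 8 of the 8 genes (14 of 17 windows), against 34.6% of all 35116 windows. The GC box letters GGGCGG, which can overlap the EGR1 letters, were found in 8 of 8 genes and 14 of 17 windows, against 45% of all windows. TATAAA was found in 3 of 8 genes (3 of 17 windows), and in 11.5% of all windows. The letters GCGNGGGCG, the site EGR1 is known to bind, were found in a window of 4 of 8 genes (4 of 17 windows), and in 9.43% of all windows. They were not in the windows of PTMA, H2AFZ, H3F3B and HMGN2. These are matches of letters and say nothing of binding.

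The deposited values were read as FPKM, sequenced fragments scaled to gene length and library size, so levels of different genes can be set side by side. OCI-LY10 libraries held 431993 to 445028 FPKM in all and 10319 to 10499 genes at 1 FPKM or more. The depth is unknown, since the sources used here give no read totals, and no counting interval is given. EGR1 was not lower in shEGR1 libraries of OCI-LY10, where it stood at 14.0 ± 5.69 FPKM under shEGR1#8, 15.1 ± 6.61 under shEGR1#9 and 10.2 ± 1.93 in control (SD, n = 3 each). In TMD8 it read 10.8 FPKM under shEGR1#8 and 9.95 under shEGR1#9, against 7.31 in control, and in SUDHL2 13.7 and 15.4, against 17.0. In OCI-LY10 the EGR1 groups overlapped, and replicates 1 and 2 of both labels lay inside the control range of 8.57 to 12.3 FPKM. Replicate 3 read 20.5 FPKM under shEGR1#8 and 22.7 under shEGR1#9. Libraries are therefore named by their labels throughout. A lower level of EGR1 RNA was not seen in OCI-LY10 and TMD8, which touches every direction given between shEGR1 and control. B-cell markers reached 1 FPKM in every group (6 of 6), as did the 3 of 3 markers of the lymphoma subtype. T and NK cell markers did so in no group (0 of 5), with summed levels of 0 to 0.317 FPKM in OCI-LY10 and CD3G, CD2 and NKG7 at 0 there. Summed, they read 0.488 FPKM under shEGR1#8 and 0.808 under shEGR1#9 in TMD8, against 0.366 in control. In SUDHL2 the sums were 1.70 and 1.45 FPKM, against 0.779 in control. Myeloid markers reached 1 FPKM in no group of OCI-LY10 (0 of 4), with summed levels of at most 0.0793 FPKM and LYZ and ITGAM at 0. In TMD8 their sum was 3.03 FPKM under shEGR1#8 and 1.75 under shEGR1#9, against 1.27 in control, and in SUDHL2 1.43 and 3.24, against 2.19. Summed B-cell markers were higher in every shEGR1 library of OCI-LY10, at 2230 to 2500 FPKM under shEGR1#8 and 2263 to 2359 under shEGR1#9, against 1954 to 2088 in control. In TMD8 they read 540 and 730 FPKM, against 707 in control, and in SUDHL2 639 and 640, against 627. Of the 4 fibroblast and epithelial markers, 1 passed 1 FPKM in OCI-LY10, EPCAM, with COL1A1 at 0. Their summed level was 6.78 to 8.68 FPKM under shEGR1#8, 6.96 to 7.88 under shEGR1#9 and 6.06 to 6.32 in control, so that it was higher in every shEGR1 library. It was also higher in TMD8 (2.63 and 3.95 FPKM, against 2.26 in control) and SUDHL2 (3.65 and 3.66 FPKM, against 2.01 in control), with EPCAM at 0 in both. There the sum rested mostly on COL1A1, another gene than in OCI-LY10. COL1A1 read 2.03 and 3.50 FPKM in TMD8, against 2.00 in control, and KRT18 0.444 and 0.307, against 0.130. In SUDHL2 COL1A1 read 2.62 and 3.37 FPKM, against 1.27 in control. The part of these marker sums in the results on the 10 genes was not tested. In bulk libraries, fewer cells of a type and less RNA per cell cannot be told apart.

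In OCI-LY10, PTMA RNA was lower in every shEGR1 library than in every control, and its small relative PTMS was higher. PTMA read 1172, 1277 and 1242 FPKM in the 3 libraries labelled shEGR1#8. Under shEGR1#9 it read 1113, 1259 and 1342 FPKM, against 2121, 2228 and 2211 FPKM in the 3 controls. The 6 shEGR1 libraries thus lay between 1113 and 1342 FPKM, well below the controls. The group means were 1230 ± 53.6 FPKM under shEGR1#8, 1238 ± 116 under shEGR1#9 and 2187 ± 57.4 in control (SD, n = 3 each). The difference of both labels from control was −0.83 on the log2(FPKM + 1) scale (SE 0.0637). By level, PTMA ranked 49 to 54 among all genes under shEGR1#8, 44 to 57 under shEGR1#9 and 14 to 23 in the controls, so it stayed among the most abundant messages.

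PTMS encodes parathymosin, an acidic nuclear protein related to prothymosin alpha. It read 3.45, 4.06 and 4.63 FPKM under shEGR1#8 and 3.75, 3.68 and 4.34 FPKM under shEGR1#9, against 3.08, 2.69 and 2.83 FPKM in control. All 6 shEGR1 libraries lay above the controls, in the opposite direction to PTMA, at a far lower level. The difference was 0.36 on the log2(FPKM + 1) scale (SE 0.0855). That scale understates changes of genes at low levels, and with a pseudocount of 0.1 in place of 1 the difference was 0.46.

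**Figure D1:**
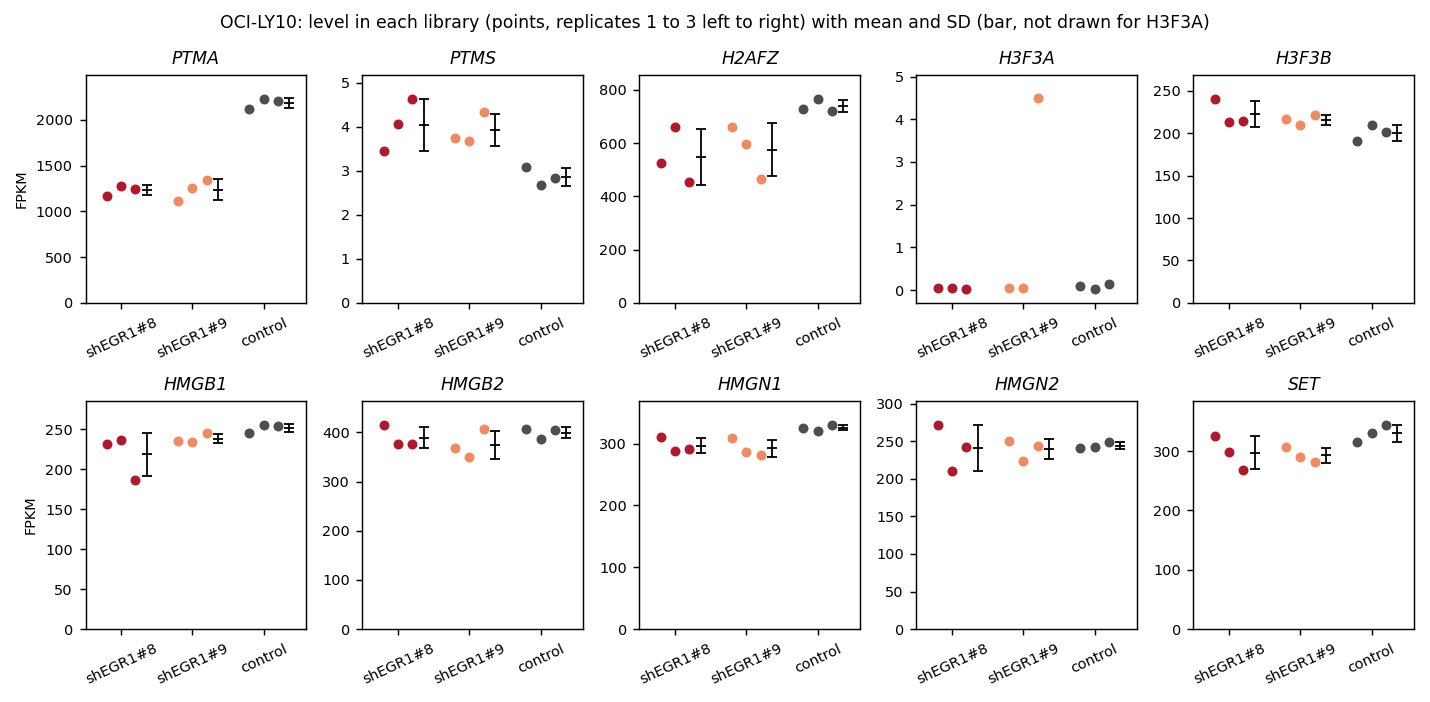
FPKM of the 10 genes in the 9 OCI-LY10 libraries, each panel with its own axis from 0 (slightly below 0 for H3F3A); points are libraries, and bars are the mean ± SD of 3 libraries, not drawn for H3F3A. PTMA lies between 1113 and 1342 FPKM in the 6 shEGR1 libraries and between 2121 and 2228 FPKM in the controls. H2AFZ, HMGB1 and HMGN1 also lie below and PTMS lies above the controls in all 6, and the groups overlap in the other panels.

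The ratio of PTMA to PTMS within a library is not moved by any scaling between libraries. It was 268 to 340 under shEGR1#8, 296 to 342 under shEGR1#9 and 688 to 830 in the OCI-LY10 controls, or 8.26 ± 0.17, 8.30 ± 0.11 and 9.58 ± 0.14 as log2 ratios (SD, n = 3 each). In TMD8 the ratio was 122 under shEGR1#8 and 137 under shEGR1#9, against 554 in control. In SUDHL2 it was 65.3 and 72.5, against 292 in control. The shEGR1 libraries of a line thus lay close together and below its control in all 3 lines. PTMA and PTMS were set side by side with results of these data known, their values in OCI-LY10 among them. In each line the ratio repeats their differences from control. In TMD8 and SUDHL2 both labels were also set against the same control library of the line. Nothing beyond those differences is therefore read from the ratio in any line. The ratio of PTMA to SET was 3.60 to 4.62 under shEGR1#8, 3.63 to 4.77 under shEGR1#9 and 6.44 to 6.75 in the OCI-LY10 controls.

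**Figure D2:**
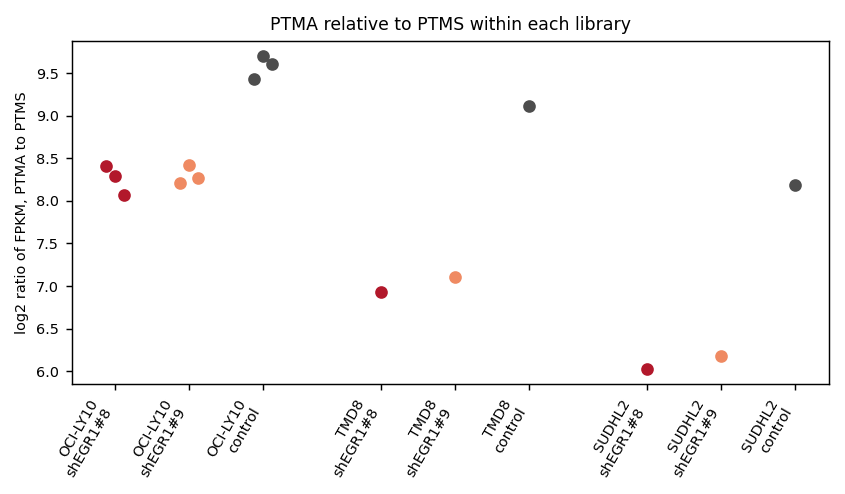
Log2 ratio of the FPKM of PTMA to that of PTMS in each of the 15 libraries, by line and label; each point is 1 library, and the axis does not start at 0. Both shEGR1 labels lie below control in each line, with 8.26 and 8.30 against 9.58 as means in OCI-LY10, 6.93 and 7.10 against 9.11 in TMD8, and 6.03 and 6.18 against 8.19 in SUDHL2.

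The gene of the replacement histone H2A.Z, H2AFZ, was the second most abundant of the 10 and also lay lower in all 6 shEGR1 libraries of OCI-LY10. It read 527, 661 and 455 FPKM under shEGR1#8 and 661, 599 and 466 FPKM under shEGR1#9, against 729, 766 and 722 FPKM in control. The groups did not overlap, and replicate 3 was the lowest of each label. On the log2(FPKM + 1) scale the shEGR1 libraries were spread more widely (8.83 to 9.37) than those of PTMA (10.1 to 10.4). The difference was −0.41 (SE 0.132) on the log2 scale, and H2AFZ was not called. Without shEGR1#8 replicate 2 it was −0.48 and H2AFZ was called.

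H3F3A and H3F3B encode the same protein, histone H3.3, which replaces canonical H3 at active genes and regulatory sites. The row of H3F3A read 0.0284 to 0.130 FPKM in 8 of the 9 OCI-LY10 libraries and 4.51 FPKM in shEGR1#9 replicate 3. It did not pass the filter of at least 1 FPKM in at least 3 libraries, and it was not tested. Its copy H3F3AP4, which the annotation gives as a pseudogene, read 373, 378 and 383 FPKM under shEGR1#8, 383, 383 and 371 under shEGR1#9 and 393, 351 and 365 in control. The level listed under H3F3AP4 was thus that of an abundant message, and its groups overlapped. Reads of the gene and of the copy cannot be told apart here, so the sum was used, which was 378 ± 4.78 FPKM under shEGR1#8, 381 ± 4.64 under shEGR1#9 and 370 ± 21.2 in control (SD, n = 3 each).

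H3F3B read 240, 213 and 214 FPKM under shEGR1#8 and 216, 210 and 221 FPKM under shEGR1#9, against 191, 210 and 201 FPKM in control. With a difference of 0.13 (SE 0.0561) it was slightly higher on average, but shEGR1#9 replicate 2 lay inside the control range. H3F3C, a further H3.3-like gene, stood at 16.6 ± 1.58 FPKM under shEGR1#8, 16.4 ± 1.43 under shEGR1#9 and 15.8 ± 1.24 in control (SD, n = 3 each). Summed H3F3A and H3F3AP4 exceeded H3F3B by 1.55 to 1.79 times under shEGR1#8, 1.69 to 1.83 times under shEGR1#9 and 1.67 to 2.06 times in control, and these ranges overlap. This sum was an addition made after the H3F3A row had been seen.

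**Figure D3:**
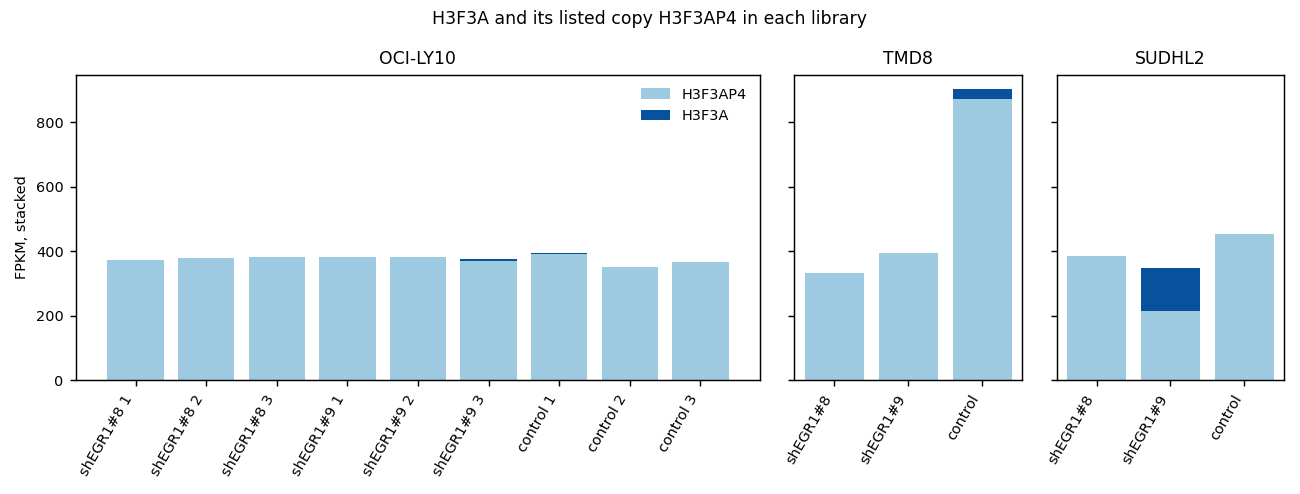
FPKM of H3F3A stacked on that of its listed copy H3F3AP4 in each of the 15 libraries, in 3 panels by line with 1 shared axis from 0. The H3F3A row holds a visible share in SUDHL2 shEGR1#9 (132 of 347 FPKM) and TMD8 control (31.3 of 904 FPKM), and the sum is 351 to 393 FPKM in the OCI-LY10 libraries.

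HMGB1 and HMGB2 bend DNA, and HMGB1 acts outside the cell as an alarm signal when it is released. HMGB1 read 232, 237 and 187 FPKM under shEGR1#8 and 235, 235 and 246 FPKM under shEGR1#9, against 246, 255 and 254 FPKM in control. All 6 shEGR1 libraries were below the controls, with under 1 FPKM between the highest of them and the lowest control, and the difference was −0.14 (SE 0.0743). HMGB2 read 415, 377 and 377 FPKM under shEGR1#8 and 369, 349 and 406 under shEGR1#9, against 407, 386 and 406 in control. Its groups overlapped, and the difference was −0.07 (SE 0.0600).

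HMGN1 and HMGN2 bind the nucleosome core and counter the packing of chromatin by histone H1. HMGN1 read 311, 288 and 292 FPKM under shEGR1#8 and 309, 286 and 282 under shEGR1#9, against 326, 321 and 330 in control. All shEGR1 libraries lay below the controls by a small margin, with a difference of −0.14 (SE 0.0484). HMGN2 read 271, 210 and 243 FPKM under shEGR1#8 and 251, 224 and 244 under shEGR1#9, against 240, 243 and 249 in control. The control values of HMGN2 lay inside the range of the shEGR1 libraries, and the difference of −0.03 (SE 0.0776) changed sign to 0.02 when shEGR1#8 replicate 2 was left out.

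SET is a histone chaperone that masks histone tails from acetylation and inhibits the phosphatase PP2A. It read 325, 299 and 269 FPKM under shEGR1#8 and 306, 290 and 281 under shEGR1#9, against 316, 330 and 343 in control. It was lower on average, at −0.16 (SE 0.0658), but shEGR1#8 replicate 1 stood above 1 control. Its copy SETSIP read 1.19 ± 0.22 FPKM under shEGR1#8, 1.77 ± 0.0826 under shEGR1#9 and 1.80 ± 0.33 in control (SD, n = 3 each), a small addition to SET.

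Of the 10 genes, 9 passed the filter. In the limma test of both shEGR1 labels against control (called at an adjusted p under 0.05 over 10612 genes), 1 member was called lower, PTMA, where 2.71% of all genes were, and 1 higher, PTMS, where 5.84% were. The other 7 were not called. In all, 620 genes were called higher and 288 lower, and with quantile normalization 444 and 367. Under shEGR1#8 alone and under shEGR1#9 alone PTMA was the 1 member called lower and 0 were called higher (1.62% and 1.54% of all genes were called lower, and 3.71% and 3.55% higher), and these comparisons share the 3 controls. PTMA was chosen on this contrast, so nothing is read from these counts. The call of PTMS was lost without any single control library, without any single shEGR1#9 library, with quantile normalization and with no filter on low values. Values of all 6 shEGR1 libraries below all 3 controls were found in 4 members (PTMA, H2AFZ, HMGB1 and HMGN1) and in 8.22% of all genes, and above all controls in 1 member (PTMS) and 12.9% of all genes. The median difference over the 9 members was −0.14, and over all genes tested 0.03. Over the 695 genes with a mean of at least 100 FPKM it was −0.03, with 3.02% called lower and 4.17% higher.

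**Figure D4:**
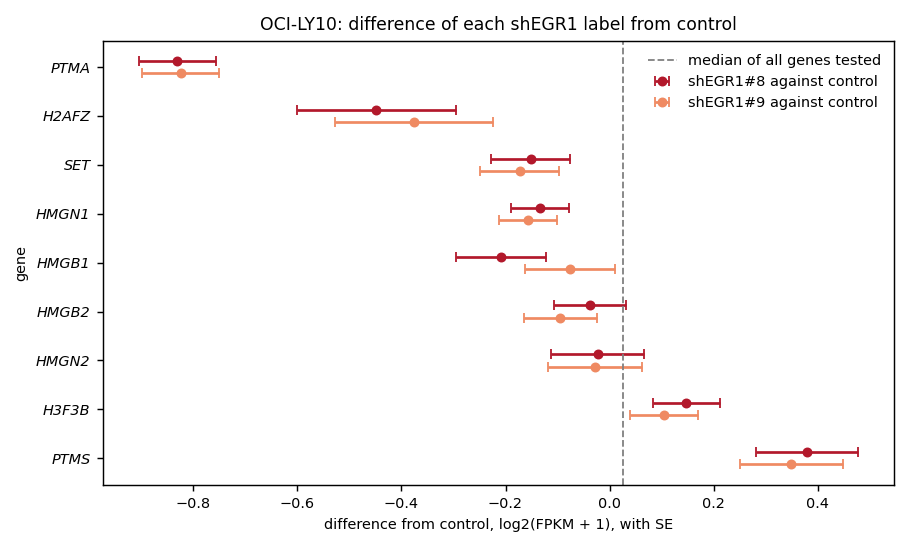
Difference from control in OCI-LY10 on the log2(FPKM + 1) scale for the 9 members that passed the filter, by shEGR1 label, with SE bars; the dashed line is the median of all genes tested, 0.03. PTMA lies at −0.83 and −0.82, H2AFZ at −0.45 and −0.38, and PTMS at 0.38 and 0.35, and both labels give the same sign for each gene shown.

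The libraries of the 2 hairpin labels were also compared with each other. The difference itself uses no control, but the spread behind its p-values and intervals was estimated over all 9 libraries, controls included. In limma, 0 of the 10612 genes were called between shEGR1#8 and shEGR1#9 (0% of genes; 267 had an unadjusted p under 0.05), and 0 of the 9 members. The limma adjusted p was 1.00 for each of the 9. PTMA differed by −0.01 (95% interval −0.17 to 0.16). PTMS differed by 0.03 (−0.19 to 0.25) and H3F3B by 0.04 (−0.10 to 0.19). The difference was −0.07 for H2AFZ (−0.42 to 0.27), the widest interval of the members. For the other 5 it lay between −0.13 (HMGB1, −0.33 to 0.06) and 0.06 (HMGB2, −0.10 to 0.21). For PTMA the interval between labels is far narrower than its distance from the controls, while for H2AFZ a difference between the labels of up to 0.42 cannot be set aside. Same-numbered libraries of the 2 labels deviated together (r 0.13 to 0.26 over genes). Differently numbered ones had r −0.27 to 0.15, so the ranges overlap and the pairing is uncertain. A fit of the 6 shEGR1 libraries alone, with the number as a block, also called 0 genes (310 had an unadjusted p under 0.05). Its intervals were −0.16 to 0.15 for PTMA and −0.30 to 0.16 for H2AFZ.

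By level, the order of the members in the OCI-LY10 controls was PTMA (2187 FPKM), H2AFZ (739), HMGB2 (400), SET (330), HMGN1 (326), HMGB1 (251), HMGN2 (244), H3F3B (201) and PTMS (2.87). The row of H3F3AP4 came between HMGB2 and SET at 370 FPKM. The controls of SET and HMGN1 overlapped, as did those of HMGB1 and HMGN2 and those of HMGB2 and H3F3AP4. In shEGR1 libraries of both labels the first 5 members kept this order, with overlap between SET and HMGN1. HMGB1 and HMGN2 overlapped under both labels, and H3F3B overlapped with them under shEGR1#8 but lay below both under shEGR1#9.

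The genes whose pattern over the 9 OCI-LY10 libraries was most like that of PTMA were CWC25, a splicing factor (Pearson r = 0.990), SORD, sorbitol dehydrogenase (0.990), WASF2, a regulator of actin branching (0.987), ASH2L, a subunit of complexes that methylate histone H3 (0.984), and ELF4, an ETS family transcription factor (0.981). These r values describe likeness on log2(FPKM + 1), and the 9 points fall into shEGR1 and control libraries, so r takes in the step between these as well as the spread within them. WASF2 read 28.0 ± 0.53 FPKM under shEGR1#8 and 28.7 ± 0.49 under shEGR1#9, against 51.7 ± 0.18 in control (SD, n = 3 each). ELF4 read 12.5 ± 0.67 and 12.3 ± 0.39 FPKM, against 18.8 ± 0.55 in control (SD, n = 3 each). Among the members, r with PTMA was 0.73 for HMGN1, 0.67 for H2AFZ, 0.63 for SET, 0.54 for HMGB1, 0.40 for HMGB2 and 0.03 for HMGN2. It was −0.70 for H3F3B and −0.81 for PTMS. HMGN1, the nearest member, ranked 633 of 10612 genes in this likeness, counting PTMA itself.

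PTMA also overlaps a microRNA gene, MIR1244-1, whose hairpin of 85 bases lies inside it in GRCh38.p14. The annotation has 4 hairpins of this name with 1 shared sequence, and the others lie in PTMA pseudogenes (MIR1244-2 in PTMAP2, MIR1244-3 in PTMAP4 and MIR1244-4 in PTMAP9). The mature sequence is shown because the same letters are part of the PTMA locus and its copies. Capitals mark the seed, bases 2 to 8.
hsa-miR-1244, chr2:231713368-231713393, plus strand: aAGUAGUUgguuuguaugagaugguu

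The rows of MIR1244-1, MIR1244-2 and MIR1244-3 together read 151, 187 and 78.4 FPKM under shEGR1#8 and 210, 172 and 145 FPKM under shEGR1#9, against 349, 365 and 335 FPKM in the OCI-LY10 controls. All 6 shEGR1 sums lay below the controls, a pattern found in 8.22% of all genes. Of the single rows, MIR1244-2 lay below the controls in all 6, and the groups of MIR1244-1 and MIR1244-3 overlapped. MIR1244-2 read 25.4 to 61.3 FPKM under shEGR1#8 and 37.0 to 54.1 under shEGR1#9, against 71.4 to 114 in control. Reads of the hairpin and of the message that holds it cannot be told apart in these values, and they are no measure of the mature microRNA. In the TMD8 and SUDHL2 tables the 3 rows are listed at 0 in every library, although PTMA was abundant there.

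The genes that handle H3.3, H2A.Z and the other members' partners were read from 6 lists, of which 60 of 64 genes were tested. The lists, like the members, were drawn up with results of these data known. Calls and p-values of their genes, here and below, are therefore descriptions, and nothing is read from them. In OCI-LY10, 4 of these fell and 0 rose in the limma test of both labels against control, where 2.71% and 5.84% of all genes were called in those directions. ANP32B, an acidic nuclear protein that chaperones histones and is of the same family as ANP32A, a partner of SET, fell in that test. It read 178 ± 33.1 FPKM under shEGR1#8 and 197 ± 18.1 under shEGR1#9, against 258 ± 5.03 in control (SD, n = 3 each). Its log2 difference was −0.47 (SE 0.107, limma adjusted p = 0.0284), and it was the 1 gene called of 11 in the list of SET and prothymosin partners. That list had a median of 0.11.

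Of 9 genes for H3.3 deposition, 1 fell and 8 were not called, with a median of −0.03. NASP, which holds soluble H3 and H4, was the gene that fell over both labels together. It read 83.0 ± 14.1 FPKM under shEGR1#8 and 85.6 ± 6.33 under shEGR1#9, against 109 ± 2.21 in control (SD, n = 3 each; limma adjusted p = 0.0479). Of 13 other histone chaperones 2 fell, with a median of −0.16. They were CHAF1B, a subunit of the chromatin assembly factor that follows the replication fork (−0.21, SE 0.0459, limma adjusted p = 0.0268), and ASF1B, a carrier of H3 and H4 in dividing cells (−0.17, SE 0.0439, limma adjusted p = 0.0416). By single label, ANP32B and CHAF1B were called under shEGR1#8 (limma adjusted p = 0.0393 and 0.0232) and not under shEGR1#9 (0.119 and 0.199). NASP (0.0785 and 0.131) and ASF1B (0.0908 and 0.0912) were called under neither. Between the labels none of the 4 was called (limma adjusted p 1.00 for each). All 4 of the calls over both labels ended when any single control library was left out (limma adjusted p 0.0711 to 0.175) and when shEGR1#9 replicate 2 or 3 was left out (0.0547 to 0.109).

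Of the 14 genes for H2A.Z exchange 0 were called. The values at the ends were −0.23 for ACTR6 (SE 0.179, limma adjusted p = 0.449), a subunit of the SRCAP complex that deposits H2A.Z, and 0.21 for KAT5 (SE 0.0604, limma adjusted p = 0.0717), the acetyltransferase of the TIP60 complex. Of the 6 other variant histone genes tested 0 were called, with CENPA, the centromeric H3, at −0.18 and H2AFJ, an H2A variant, at 0.22. Of the 7 other HMG genes tested 0 were called, with HMGN5 at −0.28 and HMG20B at 0.15. H2AFJ and HMGN5 were at low levels. H2AFJ averaged 2.31 FPKM under shEGR1#8 and 2.23 under shEGR1#9, against 1.81 in control. HMGN5 averaged 0.773 and 0.848 FPKM, against 1.19 in control, near the filter level of 1 FPKM.

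In TMD8, with 1 library per label and no test, most of the 10 genes stood far below control. PTMA read 1011 FPKM under shEGR1#8 and 1494 under shEGR1#9, against 3432 in control. After subtraction of the median of all genes, its log2 differences were −1.66 and −1.19. HMGB1 read 237 and 226 FPKM, against 684 in control, and H2AFZ read 283 and 317 FPKM, against 776 in control. The differences were −1.42 and −1.58 for HMGB1 and −1.35 and −1.27 for H2AFZ. HMGB2 read 174 and 189 FPKM, against 410 in control, at −1.13 and −1.10. HMGN1 read 145 and 160 FPKM, against 295 in control, at −0.92 and −0.87. H3F3B read 76.2 and 90.2 FPKM, against 159 in control, at −0.95 and −0.80. HMGN2 (112 and 118, against 175 FPKM in control) and SET (411 and 329, against 467 FPKM in control) were within 1.5-fold of control after centring. PTMS again went the other way, with 8.28 and 10.9 FPKM, against 6.20 in control.

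The H3F3A row of TMD8 read 0.0514 and 0.0812 FPKM in the shEGR1 libraries and 31.3 in control, and H3F3AP4 read 331 and 393 FPKM, against 872 in control. Summed, the pair gave 331 FPKM under shEGR1#8 and 393 under shEGR1#9, against 904 in control, with centred log2 differences of −1.34 and −1.19. The row alone gave −4.84 and −4.89, far from the values of the sum. Of the 10 members, 7 were at least 1.5-fold lower with each label, where 16.4% and 18.7% of all genes were, and 0 and 1 (PTMS) were at least 1.5-fold higher, where 15% and 13.3% were. The H3F3A row is 1 of the 7 and passed the filter on low values only through the control library, where it was high, so its place in the count was fixed by the filter; the summed pair was at least 1.5-fold lower as well. Abundant genes as a whole leaned the same way in TMD8: among the 760 with a mean of at least 100 FPKM, 30.3% and 29.3% were at least 1.5-fold lower, and their medians were −0.31 and −0.20. Short RNA genes took 60.5% and 55.5% of the FPKM in the TMD8 shEGR1 libraries and 36.3% in control. With short RNA genes removed and the rest rescaled, PTMA was at −1.39 and −0.98, 7 members were still at least 1.5-fold lower with each label, and SET under shEGR1#8 changed sign, at 0.19 in place of −0.08. The part of the short RNA share in these differences was otherwise not tested.

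In SUDHL2, again with 1 library per label, the differences of most members were smaller, and those of PTMA and PTMS were opposite. PTMA read 1270 FPKM under shEGR1#8 and 1375 under shEGR1#9, against 2234 in control, at −0.82 and −0.71 after centring. PTMS read 19.4 and 19.0 FPKM, against 7.66 in control, at 1.23 and 1.20. A lower difference than that of PTMS was found in 98.6% of all genes under shEGR1#8 and 98.1% under shEGR1#9. H2AFZ read 297 and 240 FPKM, against 405 in control. HMGB1 read 196 and 182 FPKM, against 265 in control, and HMGB2 153 and 158, against 217 in control. HMGN1 read 183 and 174 FPKM, against 226 in control, and HMGN2 110 and 118, against 140 in control. SET read 350 and 313 FPKM, against 436 in control. All these members were thus below control with both labels, mostly by less than 1.5-fold. H3F3B differed in this, at 99.0 FPKM under shEGR1#8 and 84.7 under shEGR1#9, against 98.6 in control.

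The H3F3A row of SUDHL2 read 0.0844 FPKM under shEGR1#8 and 132 under shEGR1#9, against 0.101 in control, while H3F3AP4 read 386 and 215, against 454. The sums were 386 and 347 FPKM, against 454 in control, so the high value of the row under shEGR1#9 went with a low value of the copy. At least 1.5-fold lower were 1 member under shEGR1#8 (PTMA) and 2 under shEGR1#9 (PTMA and H2AFZ), where 3.64% and 8.11% of all genes were. At least 1.5-fold higher were 1 member (PTMS) and 2 (PTMS and the H3F3A row), where 5.76% and 8.59% of all genes were. The H3F3A row passed the filter only through the shEGR1#9 library, where it was high, and the summed pair was lower there, so PTMS is the member left without that row. Among the 796 genes with a mean of at least 100 FPKM, 7.54% and 13.9% were at least 1.5-fold lower. Short RNA genes took 52.9% and 49.4% of the FPKM in the shEGR1 libraries and 53.8% in control.

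Ratios within a library showed which member of a pair was the more abundant in each line. HMGB1 was less abundant than HMGB2 in OCI-LY10, at 0.496 to 0.627 times under shEGR1#8, 0.605 to 0.672 under shEGR1#9 and 0.604 to 0.660 in control. It was the more abundant in TMD8 (1.36 and 1.20 times, against 1.67 in control) and in SUDHL2 (1.28 and 1.15 times, against 1.22 in control). The tables may have been normalized separately, but a ratio within a library does not depend on that. It can depend on how reads of copies were placed, with 50 pseudogenes of HMGB1 and 1 of HMGB2 in the annotation. The part of this in the difference between lines was not tested. The ratio of HMGN1 to HMGN2 was above 1 in all 15 libraries, from 1.15 to 1.37 under shEGR1#8, 1.16 to 1.28 under shEGR1#9 and 1.32 to 1.36 in the OCI-LY10 controls.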

How the data were processed

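Per the labels' protocols, cDNA was prepared for sequencing with the TruSeq RNA kit. Bowtie2, HISAT and StringTie were used with build hg19, per the submitters' processing notes. Versions, roles and gene annotation are not given in the sources used. The deposited tables, 1 per line, hold 1 value per gene and library, read here as FPKM from the values, since labels and headers name no unit. Repeated gene names (4, 10 and 10 lines in OCI-LY10, TMD8 and SUDHL2) and 430 lines of the TMD8 table appended to the SUDHL2 table were left out.

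The members and lists were chosen with earlier results of these data known. OCI-LY10 genes with at least 1 FPKM in at least 3 of 9 libraries (10612) were fitted as log2(FPKM + 1) with limma 3.58.1 under R 4.3.3. The model had a mean for each group and a mean-variance trend, with Benjamini-Hochberg adjustment over all genes. The code was tested on simulated data. Between the 2 shEGR1 labels, same-numbered libraries deviated together (r 0.13 to 0.26 for the 3 pairs). They did not between either label and control (−0.19 to 0.06). Differently numbered libraries of the 2 labels had r −0.27 to 0.15, which overlaps the first range. The number was taken as pairing between the labels only, as a weak hint from the data. The fit of shEGR1 libraries alone was added after the data were seen. TMD8 and SUDHL2, with 1 library a group, got log2 differences less the median of genes with a mean of at least 1 FPKM, and no test. Named genes are the members, their listed copies, EGR1, genes overlapping PTMA, the 5 genes most like PTMA, called genes of each list, and the ends of lists with no call. Other steps used Python 3.11.15, numpy 2.4.6, pandas 2.3.3 and matplotlib 3.10.9. Sequences are from RefSeq tables of GRCh38.p14.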

Additional observations from a re-analysis of the deposited data

Results flagged for a closer look

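H3F3B, a gene of histone H3.3, had differences of opposite sign in OCI-LY10 and TMD8. Its mean log2 difference of shEGR1 libraries from control was 0.13 in OCI-LY10 and −0.88 in TMD8, a gap of 1.00. The median of all genes was subtracted in TMD8 and SUDHL2 but not in OCI-LY10, where it was 0.03. Each shEGR1 label gave the sign of its line. In OCI-LY10 H3F3B was not called and its groups overlapped, so no rise passed the test there, and in TMD8 genes with a mean of at least 100 FPKM lay lower as a whole, with medians of −0.31 and −0.20. In SUDHL2 it was 0.00 under shEGR1#8 and −0.22 under shEGR1#9. The difference between the lines was not tested, since TMD8 has 1 library per label.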

How the results depend on the processing

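PTMA was chosen on its difference from control in OCI-LY10, so its calls there support nothing; that difference was −0.86 to −0.79 over the 15 settings, and PTMS ranged from 0.31 to 0.46 and H2AFZ from −0.48 to −0.34. For both labels against control, members called (2) were 1 with no filter and 1 with quantile normalization, as the call of PTMS was lost, and 1 to 3 when 1 library was left out. Genes called (908) were 285 to 315 without any 1 control library, 534 and 539 without shEGR1#9 replicate 2 or 3, and at most 1312 (without shEGR1#8 replicate 3). When 1 library was left out, they were 134 to 696 for shEGR1#8 (566 with all) and 144 to 1143 for shEGR1#9 (540 with all), with 1 to 2 members each. The low counts were those without any 1 control (134 to 161 and 144 to 192) and without shEGR1#9 replicate 1 or 2 (340 and 267, and 222 and 148) or, for shEGR1#9, replicate 3 (169); the 1143 was without shEGR1#8 replicate 3. The range was 0 to 9 between the labels (0 with all, and 1 with no filter). Quantile normalization gave 444 genes higher and 367 lower, in place of 620 and 288. The number was also used as a replicate block in the comparisons with control, where same-numbered libraries did not deviate together. In that fit 349 and 351 genes were called for shEGR1#8 and shEGR1#9. PTMA and PTMS remained called over both labels, and ASF1B, CHAF1B and NASP were not. ANP32B and NASP also lost their calls with no filter and with quantile normalization, and NASP without shEGR1#8 replicate 3. ASF1B, CHAF1B and NASP lost theirs without shEGR1#9 replicate 1. The causes were not tested. In TMD8 and SUDHL2, 131 single values stayed within 0.1 log2 units and 45 moved further, among them most TMD8 values when short RNA genes were removed. Depth is unknown, and TMD8 and SUDHL2 have no replicate check.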
